A study of Mus musculus with 3 samples.

Results

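The abundant long noncoding RNA genes of naive CD4 T cells were taken as all genes annotated lincRNA or antisense with at least 10 TPM in each of 3 libraries. TPM is the deposited relative abundance, corrected for transcript length. The rule kept 105 genes, 55 lincRNA and 50 antisense, of 8813 genes with these annotations and 55536 genes in all. The libraries were polyA-selected and came from 1 male mouse of the strain B6.SJL-Ptprca Pepcb/BoyJ, aged 5 months, whose naive thymus-derived T cells of the CD4 and αβ type were used; the strain carries the CD45.1 form of Ptprc and has no treatment in the labels. They were 3 technical libraries of 1 biological replicate, called libraries 1, 2 and 3 by the numbers in the labels. Each SD below is therefore the spread between technical libraries (n = 3), no condition or animal can be compared, and the precision does not extend to other mice.

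LincRNA genes lie between protein-coding genes, whereas antisense genes are transcribed from the strand opposite another gene. Long noncoding RNAs act in several known ways: Malat1 and Neat1 RNA sit in nuclear bodies, host genes carry snoRNA or microRNA sequences in their introns, and some antisense RNAs change the expression of the gene opposite. Many others, named only by a Gm or Rik number, have no established function.

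Totals of expected counts, the estimated reads per gene, were 14837442, 18207118 and 17505621 in libraries 1, 2 and 3. Among the markers of naive CD4 T cells, Ccr7 averaged 2632 TPM, Tcf7 1541, Lef1 1085, Cd3e 761, Cd4 444 and Il7r 377 TPM. Among those of other blood cells, Cd8b1 averaged 17 TPM, Cd79a 2.06, Itgam 1.63 and Hbb-bs 1.18 TPM, while Cd8a, Ms4a1, Lyz2, Csf1r, Ncr1, Klrb1c and Hba-a1 were at or below 0.25 TPM. Library 2 stood apart: annotated rRNA entries held 1.09% of its TPM, against 0.301% in library 1 and 0.263% in library 3. Ribosomal protein genes held 10.02%, 7.03% and 6.73% of TPM in libraries 2, 1 and 3.

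The 105 genes together held 1.26 ± 0.0561% of all TPM. Malat1 alone made up 38.01% of their summed mean TPM and Gm26917 19.4%, while Gm20400, next in level, made up 2.58%. The other members lay far lower: 43 had a mean of 10 to 20 TPM, 30 of 20 to 50, 14 of 50 to 100, and 15 of 100 to 300. Their median mean TPM was 25.4, against 48.6 for the 7301 protein-coding genes that passed the same 10 TPM minimum. TPM chose the members, so these levels are a description and carry no test. Of the same 8813 annotated genes, 4575 were listed at 0 in every library and 550 reached 1 TPM in each.

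**Figure D1:**
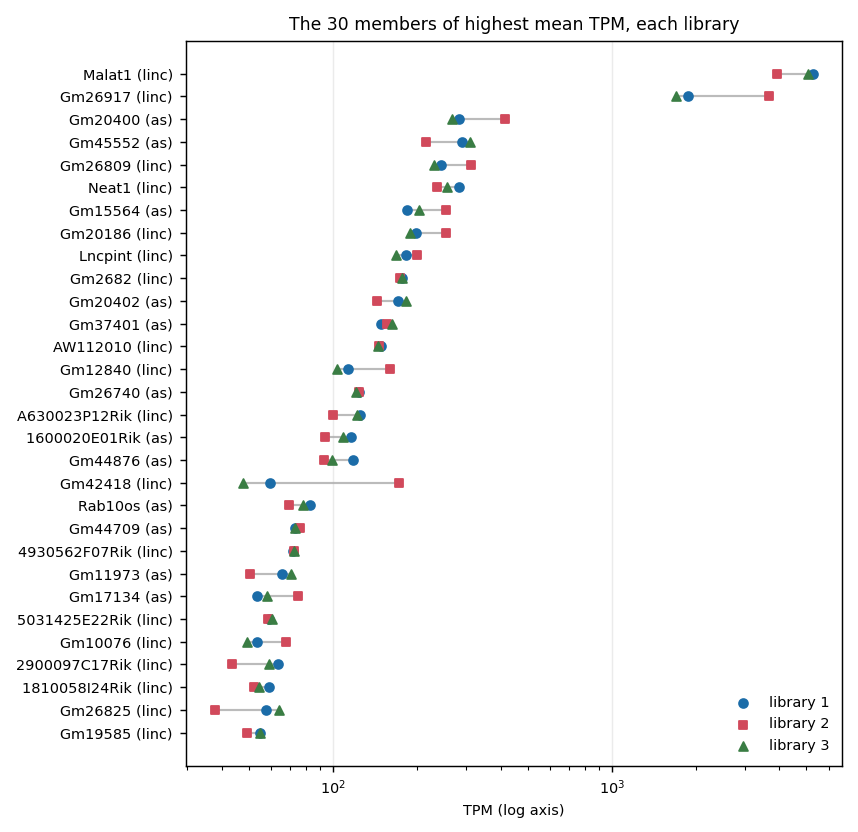
TPM on a log axis of the 30 members with the highest mean, 1 point per library (linc, lincRNA; as, antisense). Malat1 and Gm26917 stand apart from the rest, and the library 2 points of Gm26917, Gm42418, Gm20400 and Gm12840 lie well to the right of the other libraries.

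Just inside the threshold were Gm19261 with 13.3, 11.5 and 10 TPM in libraries 1, 2 and 3, Gm15340 with 11.9, 10.1 and 10.2 TPM, and Gm46430 with 11.0, 10.2 and 12.2 TPM. Just outside were Gm17300 with 9.93, 13.7 and 10 TPM, Gm26835 with 10.4, 10.4 and 9.78 TPM, and AC113003.1 with 9.63, 14.4 and 11.8 TPM. A single library decided the membership of all 3 genes outside.

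Malat1, the RNA of nuclear speckles and a regulator of splicing factors there, lies on chromosome 19 from 5795690 to 5802672 on the minus strand. It stood at 5258, 3908 and 5065 TPM in libraries 1, 2 and 3, and library 2 was the lowest. Its mean of 4744 ± 730 TPM ranked 11th of all genes. In the full-length transcript a genomic run of A closes a triple helix with U-rich runs upstream, which protects the 3′ end in place of an ordinary poly(A) tail. That stretch, at chr19:5795968-5796089 on the minus strand of GRCm38, is shown because it bears on how polyA selection captures this RNA. Capitals mark the 12-base run of A, which starts at base 6674 of the 6983-base transcript, and the 2 runs of T interrupted by C or GC before it.
Malat1: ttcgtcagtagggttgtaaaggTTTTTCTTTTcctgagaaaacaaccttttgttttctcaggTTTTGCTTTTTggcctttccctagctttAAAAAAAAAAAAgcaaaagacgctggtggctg

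The Malat1 level rested on how its reads were divided among annotated transcripts. A spliced transcript of 485 bases at the 5′ end received 19382, 18620 and 22141 expected counts in libraries 1, 2 and 3, whereas the full-length transcript received 4741, 5971 and 6309. Because TPM divides by length, the short transcript carried 98.5%, 98.0% and 98.2% of Malat1 TPM. Divided by the full length instead, an alternative added after the values were seen, the same Malat1 counts gave 405, 318 and 402 TPM, a mean of 375 ± 49.4 TPM. Another entry covers the same stretch: Gm37376, annotated on the other strand from 5801941 to 5802393 with the type TEC (to be experimentally checked), received 23653, 25631 and 29430 expected counts. The short transcript and Gm37376 overlap each other and both lie within the full-length transcript, so the level of each depends on how reads were divided.

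Neat1, the scaffold RNA of paraspeckles, lies 22035 bases from Malat1, from 5824708 to 5845478 on the minus strand. It had 283, 236 and 257 TPM in libraries 1, 2 and 3, a mean of 259 ± 23.4 TPM. Neat1 is known to exist as a short polyadenylated form and a long form that ends in a triple helix. The 3004-base transcript held 96.6%, 96.2% and 97.5% of its TPM, and the 20771-base transcript held 1.72%, 1.88% and 1.63%. Its total counts over the longest transcript gave 40.4 ± 3.52 TPM.

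**Figure D2:**
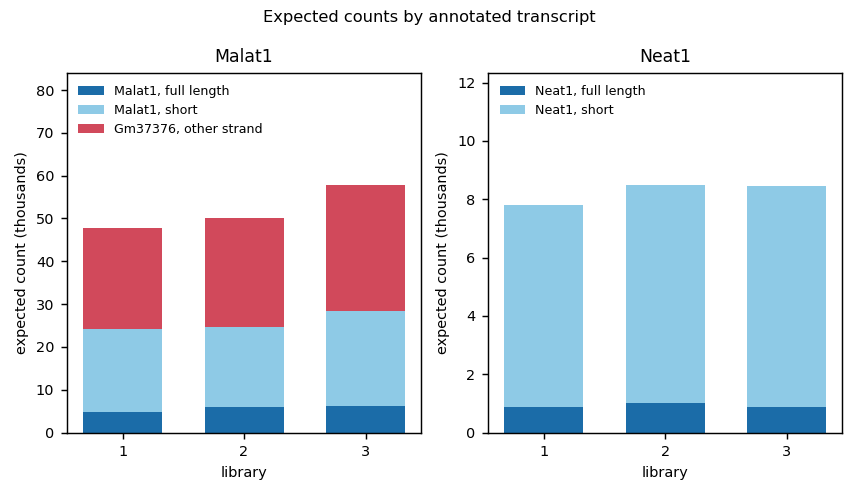
Expected counts per library, on an axis scaled down for display, given to the annotated transcripts of Malat1, with Gm37376 on the other strand, and of Neat1. In all 3 libraries the short transcripts held more counts than the full-length ones, and Gm37376 held 23653 to 29430 counts.

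Gm26917 and Gm42418 flank and cover an rRNA copy on chromosome 17. Gm26917 lies from 39843013 to 39846341 on the plus strand and ends 11 bases before CT010467.1, annotated rRNA. Gm42418, from 39846958 to 39848788, lies inside CT010467.1 on the other strand and shares 1822 of its 1831 exonic bases with it. RefSeq gives the name Gm42418 as a synonym of Rn18s-rs5, a pseudogene of 18S rRNA. Gm26917 had 1874, 3670 and 1707 TPM in libraries 1, 2 and 3, and Gm42418 had 59.5, 172 and 47.6 TPM. CT010467.1 itself had 2942, 10734 and 2579 TPM, so all 3 entries of the locus were highest in library 2. On counts scaled for library size, library 2 exceeded the mean of libraries 1 and 3 by 1.15 (log2) for Gm26917 and by 1.80 for Gm42418. No 50-base stretch of Gm26917 occurs in another annotated transcript, whereas 94.9% of such stretches of Gm42418 occur in CT010467.1 or in AY036118, a lincRNA entry listed at 0, both on the other strand. The part of rRNA carry-over in these levels was not tested. Without both entries the set held 1.00 ± 0.0661% of TPM.

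Some members are hosts of snoRNAs. The introns of such genes release small nucleolar RNAs that guide rRNA modification, and the spliced remainder is usually short-lived. Snhg12, which hosts Snora16a, Snora44, Snora61 and Snord99, had 26.1, 48.0 and 16.2 TPM in libraries 1, 2 and 3. Snhg6, host of Snord87, had 25.9, 39.9 and 28.2 TPM. In both, library 2 was the highest. Snhg20, which carries a scaRNA and Mir6516, went the other way with 55.7, 43.5 and 48.1 TPM. Epb41l4aos, which holds 1 annotated snoRNA gene, had 15.2, 18.6 and 14.0 TPM and did not pass the test of library differences.

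Scaled counts of Snhg12 were 129, 249 and 76.3 in libraries 1, 2 and 3, a ratio of highest to lowest of 3.27. Of 19 snoRNA host genes listed, 16 were found and 11 reached 10 TPM in every library; the 8 besides the 3 members are annotated processed_transcript. Among them Gas5, whose spliced RNA binds the glucocorticoid receptor in human cells, was the highest at 627 ± 31.6 TPM. Of the 11 hosts, 10 were highest in library 2 on scaled counts, as were 39.2% of all genes tested. Of those 10, 7 passed the test of library differences described further on, as did Snhg20, whose count was highest in library 1. Over all genes tested, 18.2% passed with library 2 highest.

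Mir142hg, the primary transcript of miR-142, a microRNA of blood cells needed for T cell homeostasis, lies on chromosome 11 from 87755577 to 87757270. Its annotated 269-base spliced RNA had 28.1, 35.1 and 23.6 TPM in libraries 1, 2 and 3, and rests on 53, 86 and 53 expected counts. The Mir142 hairpin, at chr11:87756864-87756927, lies in its intron and would not be counted with the spliced RNA. The 2 mature arms in RefSeq (GRCm38.p6) are shown with the seed, bases 2 to 8, in capitals; the seeds differ, so the arms do not form 1 seed family.
mmu-miR-142a-5p: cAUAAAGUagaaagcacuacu
mmu-miR-142a-3p: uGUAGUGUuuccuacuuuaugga

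Other members have a known role outside these classes. Lncpint, a transcript induced by p53, had 183, 200 and 168 TPM in libraries 1, 2 and 3. AW112010, induced in inflamed immune cells and shown in mouse macrophages to encode a small protein, had 148, 146 and 146 TPM, an SD of 1.34 TPM. Tug1, a conserved nuclear RNA needed for male fertility in mice, had 50.1, 45.9 and 52.1 TPM. Lncpint and Tug1 passed the test of library differences described further on, with ratios of highest to lowest scaled count of 1.28 and 1.09, and AW112010 did not (1.08).

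Pvt1, the RNA next to Myc (47612 bases away), had 15.3, 15.6 and 12.5 TPM in libraries 1, 2 and 3. Mirt1, named for myocardial infarction, had 33.2, 28.3 and 31.8 TPM. Gm26740, whose span overlaps the NKG2D ligand gene H60b, had 124, 124 and 121 TPM. RefSeq lists 2900097C17Rik as a synonym of Norad, the RNA that binds Pumilio proteins; it had 63.4, 43.6 and 58.8 TPM. Norad shares 39.5% of its 50-base stretches with Gm7292, another lincRNA entry. By symbol, 61 of 70 long noncoding genes listed for a known role were found, 14 of them members; Norad, listed under that name, is not counted in this tally. Of the 61, 23 had at least 10 TPM in each library, the other 9 under other gene types.

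Of the 105 members, 48 had exons opposite the exons of a protein-coding gene: 41 of 50 antisense and 7 of 55 lincRNA genes. Over all annotated genes the shares were 56.6% of antisense and 4.22% of lincRNA genes, and 74.0% and 20.2% among those with at least 1 TPM in each library. In 31 members the overlap reached coding sequence, and in 17 only untranslated or other exons. The member had the lower TPM in 41 of the 48 pairs, and the coding genes had a median mean TPM of 118. Reads from such a stretch are told apart only by strand, and whether counting used strand is not stated.

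The estimates themselves show reads divided between entries. Members were cut into all 50-base windows, the read length implied by the tables, and each window was looked up in every other annotated transcript. Of 44 members that shared windows on the other strand alone, 41 had an expected count that was not whole in at least 1 library. This held for all 37 of them with at least 5% of windows shared. Of 26 members with no shared window, 1 had such a count, Gm26740. At least 50% of the windows were shared in 15 members, 13 of them on the other strand. In 10 members, 9 of which are among those 15, the deposited posterior SD of the count exceeded the counting error (the square root of the count) in every library. For Gm26825, 93.3% of whose windows occur on the other strand of Hspa8, a chaperone gene, or of processed pseudogenes, the 974 expected counts in library 1 had a posterior SD of 134 and a counting error of 31.2.

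Among the 11 members with at least 50% of their exonic bases opposite coding-gene exons, Gm20402 opposite Foxo1 was the most abundant. Foxo1 is the transcription factor that keeps T cells naive by driving Ccr7 and Il7r, among others. Gm20402, on chromosome 3 from 52268435 to 52269435 on the minus strand, had 172, 144 and 183 TPM in libraries 1, 2 and 3, while Foxo1 had a mean of 103 ± 3.89 TPM. Its 687 exonic bases include 674 opposite Foxo1 exons, 307 of them coding. Of the Gm20402 windows 90.4% occur in Foxo1, so its level depends on how reads were divided. The 60 bases at chr3:52268802-52268861 are shown because the annotation places transcripts on both strands there; capitals mark the Foxo1 start codon and its complement.
Gm20402: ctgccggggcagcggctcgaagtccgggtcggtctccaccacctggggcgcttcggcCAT
Foxo1: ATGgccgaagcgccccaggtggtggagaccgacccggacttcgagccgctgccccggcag

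Gm37401 lay opposite Rhoa, the small GTPase of actin remodelling, over 324 of 347 exonic bases, none of them coding. It had 148, 157 and 163 TPM in libraries 1, 2 and 3, against 379 TPM for Rhoa on average. Gm44876 lay opposite Il4ra, the interleukin 4 receptor chain, over 571 of 670 bases and had 117.9, 92.7 and 99.5 TPM, against 749 TPM for Il4ra on average. Both were below the mean of the gene opposite in every library.

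Gm17134 (opposite Ptbp1, a splicing repressor) had 53.3, 74.8 and 57.9 TPM in libraries 1, 2 and 3, and Gm44709 (opposite Supt5, an elongation factor) had 73.0, 76.2 and 73.2 TPM. Gm44170, opposite Sec61a1 of the protein translocation channel, had 36.6, 22.8 and 28.5 TPM. 4930562F07Rik had 71.7, 72.4 and 72.7 TPM opposite 4930523C07Rik. Gm17134 and Gm44170 passed the test of library differences, highest in libraries 2 and 1, and the other members of these 4 did not. That test covers counting error only, which the posterior SD exceeded in every library for both. In libraries 1, 2 and 3 Gm17134 had posterior SDs of 23.5, 29.3 and 27.9 against counting errors of 13.3, 18.0 and 15.1. Gm44170 had 18.3, 20.2 and 20.7 against 12.5, 11.3 and 12.1.

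The other 4 members with at least 50% of their exons overlapped had lower levels. Gm20463, opposite the ubiquitin ligase gene Rnf5, had 15.5, 13.4 and 20.97 TPM in libraries 1, 2 and 3, and Gm48899, opposite Zfp874b, had 11.5, 13.0 and 11.0 TPM. Gm30054, opposite Fam149b, had 11.9, 12.8 and 12.5 TPM, and Gm13563, opposite Entr1, had 13.2, 14.5 and 16.4 TPM. Gm15441, known in mouse liver to repress Txnip, the thioredoxin inhibitor opposite it, overlaps it over 36.2% of its exons and had 11.5, 11.3 and 11.9 TPM. Txnip had 600 TPM on average.

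Besides Gm20402, 6 members exceeded the coding gene opposite. Gm11973 had 62.1 ± 10.6 TPM, against 23.96 TPM for Purb, and all 285 bases of overlap are Purb coding sequence. Tug1 had 49.4 ± 3.17 TPM, against 27.9 TPM for Morc2a. Snhg6 lies opposite Mcmdc2, which averaged 0.213 TPM, and Trmt61b, annotated antisense here, opposite Spdya at 0.590 TPM. Gm42722 averaged 15.9 TPM opposite Chil5 at 4.61 TPM, and Mypopos 12.4 TPM opposite Mypop at 4.87 TPM.

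**Figure D3:**
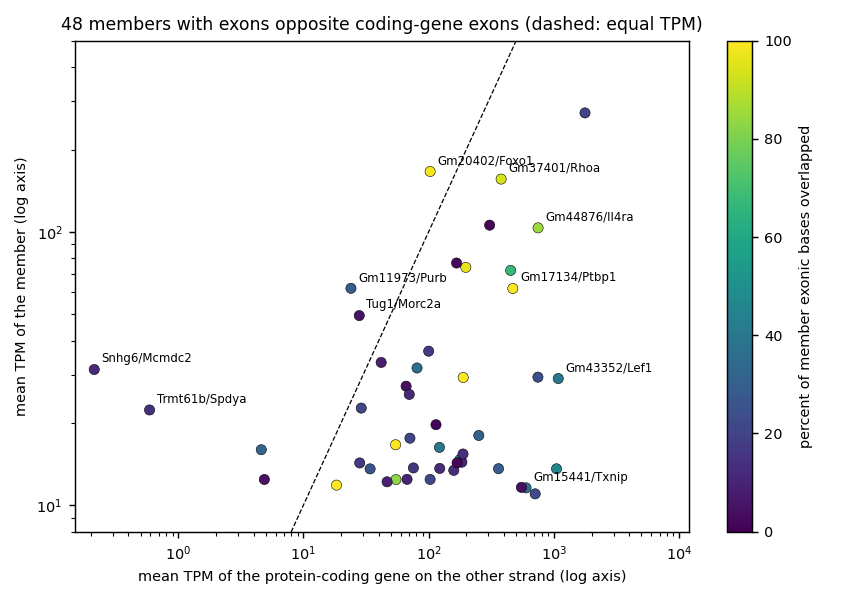
Mean TPM of the 48 members with exons opposite coding exons (y) against the coding gene they overlap most (x), both on log axes, coloured by the percent of member exonic bases overlapped. Of the 48 points, 41 lie below the dashed line of equal TPM, and Gm20402 is the only member with at least 50% of its bases overlapped that lies above it.

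Some members share sequence with other genes elsewhere in the genome. Gm10076, on chromosome 14, shares 69.9% of its windows with Rpl41, which encodes the smallest ribosomal protein. It had 53.5, 67.8 and 49.2 TPM in libraries 1, 2 and 3. The 78 bases at chr14:105681869-105681946 are identical to the Rpl41 coding sequence, which is why they are shown; capitals mark the start and stop codons.
Gm10076: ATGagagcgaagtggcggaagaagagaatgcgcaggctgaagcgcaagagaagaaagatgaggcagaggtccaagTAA

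In the deposited whole-number counts on the older annotation, Gm10076 had 0, 1 and 0 reads, against expected counts of 154, 253 and 168. AW112010, which shares no window, had 193, 202 and 198 reads there against expected counts of 738, 942 and 859. The older counts of all genes totalled only 5160325, 5816158 and 5703629 reads in libraries 1, 2 and 3. They lie below the totals of expected counts given above, so part of each gap is common to all genes. Gm26809 and Gm20186, which overlap on opposite strands of chromosome 6, and Gm12840 on chromosome 4 share sequence with each other. They had 244, 312 and 230 TPM, 199, 255 and 189 TPM, and 113, 160 and 104 TPM. All 3 were highest in library 2, but sequence alone does not tell them apart over the shared stretches. The deposited posterior SDs in libraries 1, 2 and 3 were 41.4, 58.6 and 45.6 for Gm26809 and 41.3, 58.4 and 45.6 for Gm20186. For Gm12840 they were 0, 0 and 0.06.

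Of the members, 13 lay within 100 kb of one of 148 T cell genes, or 12.4%, against 2.55% of all lincRNA and antisense genes and 7.82% of those with at least 1 TPM in each library. The list of T cell genes was chosen with earlier results of these data known, and the shares are a description. The spans overlapped in 8 pairs. Beside Gm20402 and Gm44876, these included Gm43352 at Lef1, Gm16008 at Tnfrsf18, Gm42809 at Il6ra, Gm19261 at Ms4a6b and Gm26551 at Tcf7.

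The member was below its T cell neighbour in 12 of the 13 pairs, Gm20402 being the exception. The T cell genes were listed with earlier results known and the members chosen by TPM, so this count is a description. Among the 48 members opposite coding exons, which include some of these pairs, 41 were below the coding gene. Gm43352 averaged 29.0 ± 2.08 TPM and Lef1, a partner of β-catenin in naive T cells, 1085 ± 111 TPM. Gm16008 averaged 18.0 ± 3.56 TPM and Tnfrsf18, the costimulatory receptor GITR, 252 ± 23.9 TPM. In Gm20402 90.4%, in Gm44876 84.1%, in Gm43352 38.5% and in Gm16008 25.2% of windows occur in the T cell gene opposite. The levels of these members are therefore uncertain, and so is the exception of Gm20402.

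Gm9889 has no exon opposite its neighbour and shares no window. It starts 78 bases from S1pr1, the receptor for lymph node egress, on the other strand, and had 34.9, 21.8 and 31.3 TPM in libraries 1, 2 and 3, against 1461 ± 113 TPM for S1pr1. Gm26551, whose span overlaps that of Tcf7 on the same strand with no shared exon, had 13.0, 19.7 and 11.2 TPM. Tcf7, a transcription factor of naive T cells, had 1541 ± 18.5 TPM. The Gm26551 span, from 51949882 to 52269514 on chromosome 11, also covers other coding genes, among them Ube2b, Cdkl3, Ppp2ca and Skp1a. Library 2 was the lowest for Gm9889 and the highest for Gm26551. 2310001H17Rik lay 28600 bases from Cd69, an early activation marker, and had 28.9 ± 2.72 TPM. Gm19585, 153125 bases from the chromatin organiser Satb1 and so outside the 100 kb limit, had 53.0 ± 3.27 TPM and no shared window.

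**Figure D4:**
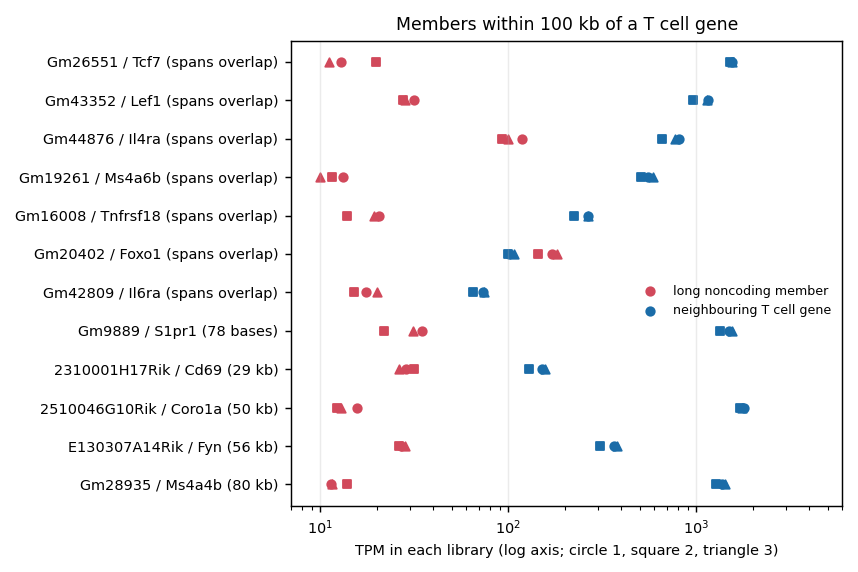
TPM in each library (log axis) of 12 members within 100 kb of a T cell gene and of that gene; labels give the gap between the gene spans. The T cell gene lies to the right of its member in every pair shown except Gm20402 and Foxo1.

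The remaining abundant members have no assigned role. Gm20400, antisense, had 284, 413 and 268 TPM in libraries 1, 2 and 3, and lies on chromosome 6 from 142161493 to 142173796. Gm45552, on chromosome 7 from 45121917 to 45124144, had 290, 216 and 310 TPM and was lowest in library 2. Gm15564 had 184, 255 and 204 TPM on chromosome 16, and Gm2682 had 177, 174 and 176 TPM on chromosome 15. Gm2682 was the steadiest of the 12 most abundant members by TPM, with library 2 the lowest. Its scaled counts of 2046, 2247 and 2097 in libraries 1, 2 and 3 were highest in library 2. On these it passed the test of library differences described further on. Gm20400 and Gm15564 were highest in library 2. No member lay on chromosome X, where 141 of the annotated lincRNA and antisense genes lie.

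Differences between the libraries were tested gene by gene on expected counts, rounded and scaled for library size by TMM, with a chi-square test of homogeneity and Benjamini-Hochberg adjustment. Of the 105 members 44 passed at an adjusted p under 0.05, 41.9%, against 40.0% of the 13090 genes tested and 53.0% of the protein-coding genes with the same TPM minimum. The members' share is thus close to that of all genes. The median ratio of highest to lowest library was 1.22 for members, 1.199 for all genes tested and 1.14 for those protein-coding genes. LincRNA members passed in 30 of 55 cases and antisense members in 14 of 50. The matching shares of all lincRNA and antisense genes tested were not computed. Median exonic bases were 2356 for lincRNA and 1128 for antisense members, and at the same TPM a longer transcript has more counts. The 2 types are therefore not compared. The test covers counting error only and takes estimated reads as counts. Gm26825 passed it, with posterior SDs of 134, 160 and 188 in libraries 1, 2 and 3 and counting errors of 31.2, 28.9 and 35.9. Gm20186, Gm44876, Gm17134, Gm10076 and Gm44170 also passed it with posterior SDs above the counting errors in every library. Counts limit what the test can show: the lowest mean was 52.5 expected counts, and 2 of the 15 members with a mean under 100 passed.

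Library 2 was highest in 26 of the 44 called members and in 45.5% of all called genes. Scaled by library totals, it was highest in 21 of 43 called members, and with no filter on low counts in 22 of 37. The matching shares of all called genes were not computed under these settings. Without library 2, 9 of 105 members differed between libraries 1 and 3, or 8.57%, against 14.7% of the genes tested. Without library 1 there were 41, against 36.8% of all genes tested, and without library 3 there were 33, against 27.6%. The 9 members called without library 2 were among the 44: Gm26917, Gm26809, Neat1, Gm44876, Gm42418, 2900097C17Rik, Snhg12, Gm44686 and 5430416N02Rik. Of these, Gm44876 had posterior SDs of 41.9 and 41.7 in libraries 1 and 3, against counting errors of 25.1 in both. Malat1 differed with library 2 (ratio 1.17) and not without it (ratio 1.00). Gm20400, Gm45552, Gm15564, Gm20186, Lncpint, Gm2682 and Gm20402 also passed with all 3 libraries and not without library 2, where their ratios were 1.03 to 1.12. Neat1 did not pass without library 1 (1.01), Gm2682 without library 1 (1.07) and Gm20402 without library 3 (1.10).

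**Figure D5:**
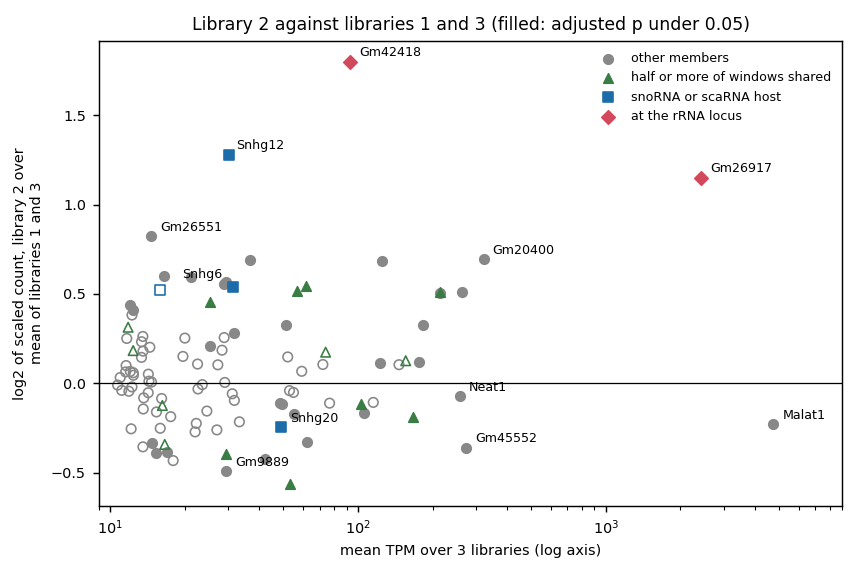
Log2 of the scaled count in library 2 over the mean of libraries 1 and 3 (y) against mean TPM (x, log axis) for all 105 members; filled symbols passed the test of library differences. The rRNA-locus entries Gm42418 and Gm26917 and the snoRNA host Snhg12 lie highest, and Malat1, Neat1 and Gm45552 lie below 0.

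The 5 called members with the widest ratio of highest to lowest scaled count were Gm42418 (3.90), Snhg12 (3.27), Gm26917 (2.32), Gm26551 (1.90) and 5430416N02Rik (1.83). All 5 were highest in library 2; 5430416N02Rik had 21.6, 26.2 and 16.0 TPM in libraries 1, 2 and 3. Gm26551 did not pass without library 2 (ratio 1.15), and 5430416N02Rik did not pass without library 3 (1.29). Without library 2 the ratio was 1.24 for Gm42418, 1.70 for Snhg12 and 1.09 for Gm26917. Library 2 also had the higher share of rRNA and of ribosomal protein RNA given above, and their part in these differences was not tested. Among the 89 members outside the rRNA locus with less than 50% of their windows shared, 34 passed, or 38.2%, with a median ratio of 1.22.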

How the data were processed

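PolyA-selected RNA of 1 mouse was sequenced in 3 technical libraries, fragmented by shearing with a size range of 100 to 300. Per the file headers and accompanying text, the authors deposited expected counts (estimated reads), posterior SDs, TPM and, per transcript, its percent of the TPM of its gene, on mm10 (GRCm38) with GENCODE M21, and whole-number counts on GENCODE M4. FPKM values were deposited by the authors and not used here. For the aligner, the counting tool and the strand setting, nothing is stated in the labels or headers.

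Members and gene lists were chosen with earlier results of these data known. Entries that name no gene held 0.200% to 0.325% of expected counts and were left out. Expected counts were rounded and scaled by TMM (edgeR 4.0.16, R 4.3.3). They were tested for homogeneity by chi-square (scipy 1.17.1) over all genes whose mean count was 10 or more, with Benjamini-Hochberg adjustment at 0.05. The procedure was also run on simulated counts that held counting error only. That run cannot show how the test behaves with error from dividing reads between entries. A count of 3 gives 0.283 to 0.367 TPM on a transcript of 1 kilobase, and less on a longer one. These values cover counting error only. Counts within 0.005 of a whole number were taken as whole. Values per library are given for the 12 members of highest mean TPM, members with a listed role, the 5 widest library ratios, 3 genes on each side of the threshold and members with at least 50% of their exonic bases overlapped; other named members were chosen after their values were seen. Sequences came from GENCODE transcripts and RefSeq; no genome sequence was used. Alternatives were DESeq2 1.42.0 size factors, library totals, other filters and thresholds, posterior mean values, other gene types and leaving out each library. A few genes and the results that need them are not reported here.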

Additional observations from a re-analysis of the deposited data

How the results depend on the processing

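No paired analysis was possible because the libraries form 1 group. The number of members was 182 at 5 TPM, 57 at 20 TPM and 187 with all long noncoding gene types; 91 to 120 met the other settings. Their share of TPM was 1.38% over protein-coding and long noncoding genes, 1.01% of expected counts without length correction, and, as alternatives added after seeing the data, 1.00% without the rRNA-locus entries and 0.820% with Malat1 divided by its full length. Members that differed between libraries numbered 9 to 41 when a library was left out, and 31 to 43 under the other settings on GENCODE M21. In the counts on the older annotation 1 of 3 tested members passed, against 18.9% of all genes tested. With no filter on low counts 35.2% of members passed, against 15.5% of all genes with any count. With a mean of at least 100 counts the shares were 46.7% and 50.2%, and at an adjusted p of 0.01 they were 29.5% and 31.1%. Under DESeq2 size factors, library totals and posterior mean counts 41.0% of members passed, against 40.0%, 42.4% and 39.2% of all genes tested. The median ratio of highest to lowest library was 1.17 without library 1, 1.09 without library 2 and 1.16 without library 3. Each of these covers 2 libraries, so they are not on the scale of the ratio over 3. On TPM of all 3 libraries the median ratio was 1.27. With at least 25% of windows shared, an added alternative, there were 28 members. Under library totals 5 members lost their call (1810041H14Rik, Gm26740, Gm2682, Mir142hg and Mypopos) and 4 others gained one; library 2 was then highest in 21 of 43 called members. Of the 105 members, 4 turned the sign of library 2 against the others under library totals (4732440D04Rik, CT485616.1, Gm13563 and Gm43352), 1 under posterior mean counts (Gm13563) and 1 with a mean of at least 100 counts (5830468F06Rik); none of these had passed the test. No sign turned under DESeq2 size factors or with no filter. Depth leaves members near the 10 TPM minimum with few counts, and the technical libraries of 1 mouse say nothing of variation between animals.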
